A study of Mus musculus with 6 samples.

Results

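Hepatic stellate cells lie between the hepatocytes and the sinusoids of the liver, store vitamin A as retinyl esters, and can turn into matrix-producing myofibroblasts after injury. They are a minority of the cells of the liver, so their transcripts are read in whole tissue through a handful of marker genes. A list of 10 such genes was followed here in the livers of Dhx32 mutant and control mice. Probe sets under a single gene symbol of the platform annotation were found for 9 of them: Dcn, Reln, Lrat, Des, Pdgfrb, Rgs5, Lum, Hgf and Ecm1. Colec11, which encodes a soluble collectin, was not analysed here. The 9 genes had 162 probe sets, of which 0 were left out by the signal minimum described next, and they stood among 15045 genes tested.

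Liver RNA came from male mice 6 to 8 weeks old, in 3 samples labelled as Dhx32-/- mutant and 3 control samples labelled wild type, with 1 exon array per sample. Dhx32 encodes a putative RNA helicase with a DEAH box. The kind of mutation and the background strain are not given in the sources used here. Each value is the log2 signal of a probe set, which covers part of an exon, and a gene's value is the mean over its probe sets that averaged 3 or more in at least one group. The number of arrays limits the precision.

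Dhx32 itself read 6.35, 6.60 and 7.04 in the mutants, against 8.28, 8.85 and 8.62 in the controls, without overlap (difference -1.92, SE 0.23, adjusted p = 0.183 in limma). Its probe sets differed unequally, by -5.26 to -0.26 (adjusted p = 2.01e-14 in the diffSplice F-test of limma). Probe set 5396990, of smallest p, read 2.53, 2.98 and 2.52 in the mutants, against 6.55, 7.58 and 7.31 in the controls. Array medians ran from 6.73 to 6.95. Mutant replicate 1 stood apart: its highest correlation with another array was 0.940, whereas each of the other arrays reached at least 0.969 with one other. The differences of the markers and of named list genes, and the counts of the lists, are therefore also given without it. Hepatocyte markers such as Alb and Hnf4a averaged 12.76 to 13.06 in mutants and 12.82 to 12.99 in controls over the 6 genes measured. In whole liver, fewer stellate cells and less RNA of these genes per cell cannot be told apart.

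Dcn, Reln, Lrat and Ecm1 had lower means in the mutants by 0.69 to 0.93 log2 units, while the other 5 genes differed by -0.24 to 0.13. In limma 0 of the 9 genes passed the adjusted threshold of 0.05, which 0.00665% of all genes did. At an unadjusted p under 0.05 stood 2 genes, Dcn and Reln, both lower in mutants, against 4.21% of all genes in either direction and 2.20% with the mutants lower. The mean was lower in mutants in 8 of the 9 genes, against 52.5% of all genes, and the median difference was -0.24 over the 9 genes and -0.01 over all genes. Leaving out mutant replicate 1, 5 of the 9 were lower, against 45.8% of all genes, the median was -0.05, and 0 genes had an unadjusted p under 0.05. In each of the 9 genes the 3 mutants spanned a wider range than the difference between the group means.

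**Figure D1:**
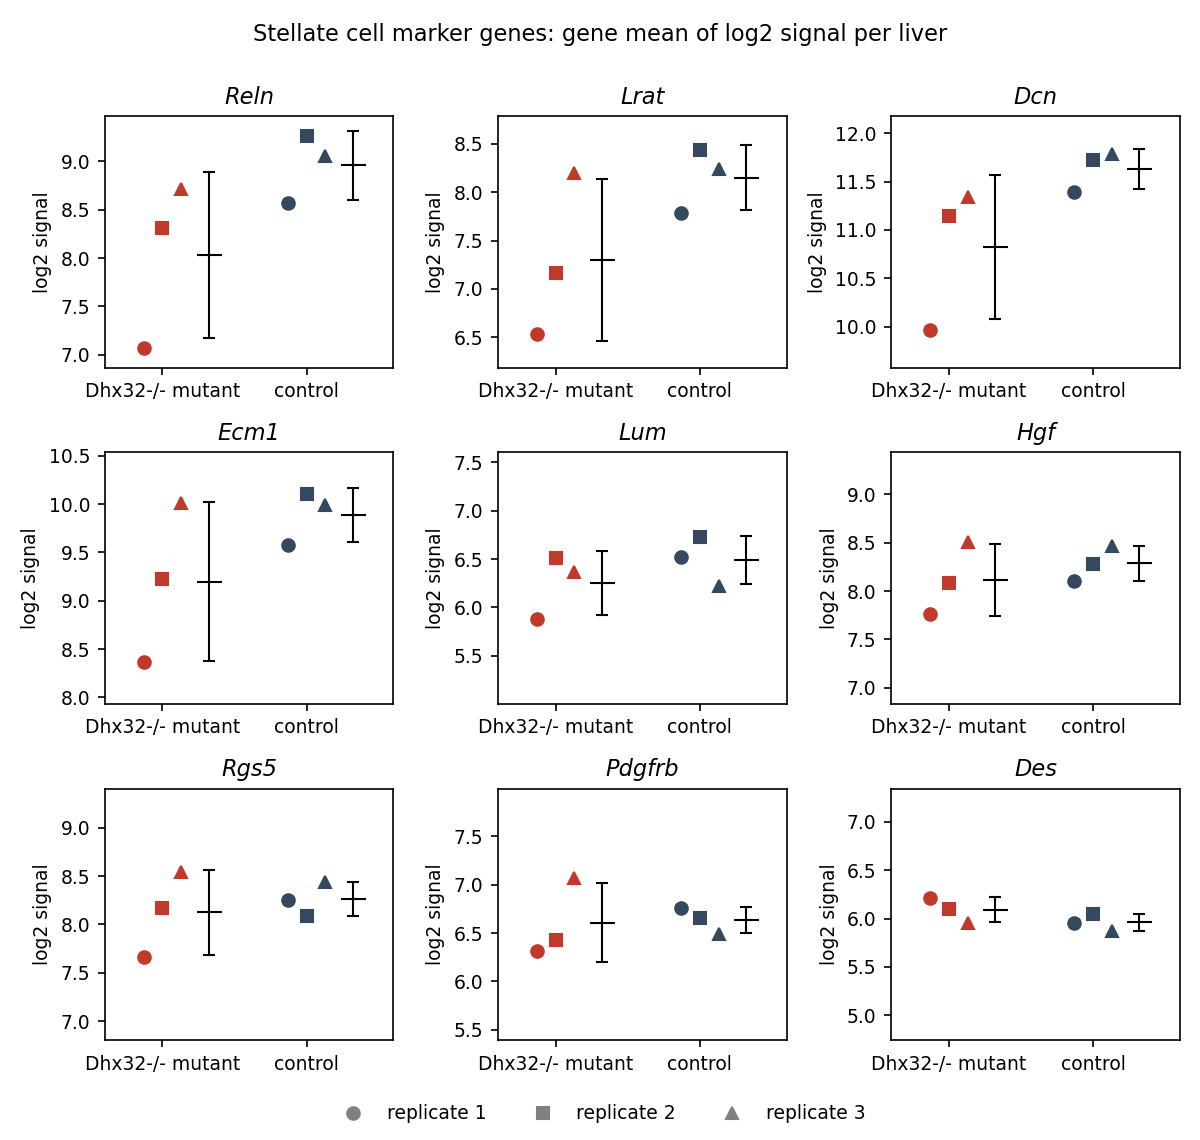
Gene mean of log2 signal (y axis, every panel spanning the same range) of the 9 genes in 3 mutant and 3 control liver samples. Mutants are on the left and controls on the right. Symbols give the replicate number, with mean and SD beside the points (n = 3). In Dcn all 3 mutants lie below all 3 controls, in the other 8 genes the groups overlap, and in 8 of the 9 genes mutant replicate 1 is the lowest point.

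Promoter sequence is shown for Lrat, Reln and Ecm1, the genes with the 3 largest differences among those with an entry in the RefSeq table (GRCm38.p6), which held 8 windows for 7 of the 10 symbols. Each run is the 250 bases before the annotated start, read along the gene. Capitals mark matches, on either strand, to the TATA box searched as TATAAA, to the CCAAT box searched by those letters, to the GC box searched as GGGCGG and to the E-box searched as CACGTG.
Lrat, chr3:82903975-82904224, minus strand: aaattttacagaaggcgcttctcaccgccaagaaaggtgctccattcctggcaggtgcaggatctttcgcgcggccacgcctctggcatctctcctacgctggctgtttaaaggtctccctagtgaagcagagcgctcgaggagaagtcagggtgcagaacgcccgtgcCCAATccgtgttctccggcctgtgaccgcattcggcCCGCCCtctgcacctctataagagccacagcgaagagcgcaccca
Reln, chr5:22344706-22344955, minus strand: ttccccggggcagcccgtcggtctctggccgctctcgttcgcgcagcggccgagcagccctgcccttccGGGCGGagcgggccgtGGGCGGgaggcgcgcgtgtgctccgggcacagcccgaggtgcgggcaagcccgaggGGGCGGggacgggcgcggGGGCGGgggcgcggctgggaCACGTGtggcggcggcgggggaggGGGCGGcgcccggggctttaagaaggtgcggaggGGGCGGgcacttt
Ecm1, chr3:95739570-95739819, minus strand: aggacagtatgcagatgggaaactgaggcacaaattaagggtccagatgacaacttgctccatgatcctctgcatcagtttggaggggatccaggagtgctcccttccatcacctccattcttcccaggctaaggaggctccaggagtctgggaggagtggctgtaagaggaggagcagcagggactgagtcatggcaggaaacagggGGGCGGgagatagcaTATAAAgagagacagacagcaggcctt
The Reln window was 80.0% G or C, against 59.2% for Lrat, 54.0% for Ecm1 and a median of 52.4% over 32851 windows of that length. GGGCGG occurred 6 times before Reln, and also before Lrat and Ecm1, 45 and 42 bases from the start (before Lrat on the other strand, where it reads CCGCCC). It is held by 4 of the 8 windows of the marker genes and by 32.7% of all windows. Lrat had the CCAAT box 81 bases before the start (33.8% of all windows hold it), Ecm1 the TATA box 27 bases before it (12.4%) and Reln the E-box 71 bases before it (6.02%). A match describes letters and is not a measured binding site.

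Lrat encodes lecithin retinol acyltransferase, the enzyme that esterifies retinol for storage in stellate cells. Its signal was 6.54, 7.17 and 8.20 in the mutants, against 7.78, 8.43 and 8.24 in the controls. Mutant replicates 1 and 2 lay below all controls, and mutant replicate 3 lay among them. The means were 7.30 ± 0.84 in mutants and 8.15 ± 0.33 in controls (SD, n = 3), a difference of -0.85 (SE 0.39, 95% interval -1.74 to 0.04), or 1.80-fold lower (adjusted p = 0.943 in limma). With mutant replicate 1 left out it was -0.47 (SE 0.32). All 4 probe sets had a lower mean in mutants, and in 2 all mutants lay below all controls, against 4.42% of all probe sets. Probe set 5376385, of smallest p, read 5.27, 5.34 and 6.30 in the mutants, against 6.71, 6.52 and 6.91 in the controls (adjusted p = 0.994 over 174710 probe sets).

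Dcn encodes decorin, a small leucine-rich proteoglycan that binds collagen fibrils and transforming growth factor beta. It read 9.97, 11.14 and 11.34 in the mutants, against 11.40, 11.72 and 11.78 in the controls. The groups did not overlap, though the highest mutant lay just under the lowest control. Among the 9 genes Dcn was the 1 with all mutants below all controls, against 4.32% of all genes, and 0 had all mutants above, against 5.15%. The means were 10.82 ± 0.74 in mutants and 11.63 ± 0.21 in controls (SD, n = 3), a difference of -0.81 (SE 0.34, 95% interval -1.59 to -0.04), or 1.76-fold lower (adjusted p = 0.943 in limma). It was -0.39 (SE 0.18) when mutant replicate 1 was left out, and Dcn was again the 1 gene of the 9 without overlap, against 6.89% of all genes. All 8 probe sets had lower means in mutants, by 0.73 to 0.96, and in 4 all mutants lay below all controls, against 4.42% of all probe sets. Probe set 5536489, of smallest p, read 10.71, 11.77 and 12.08 in the mutants, against 12.17, 12.44 and 12.61 in the controls.

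Lum encodes lumican, another small leucine-rich proteoglycan, and neighbours Dcn on chromosome 10, with 0 protein-coding genes between them. It read 5.88, 6.51 and 6.37 in the mutants, against 6.52, 6.72 and 6.23 in the controls, and the groups overlapped. The difference was -0.24 (SE 0.21, 95% interval -0.73 to 0.25, adjusted p = 0.943 in limma), and -0.05 with mutant replicate 1 left out. Its 3 probe sets differed by -0.33 to -0.11. Probe set 4974977, of smallest p, read 7.13, 8.03 and 8.07 in the mutants, against 7.78, 8.37 and 8.07 in the controls. Whether Lum and Dcn differ from each other was not tested.

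Ecm1 encodes extracellular matrix protein 1, a secreted glycoprotein. It read 8.37, 9.22 and 10.01 in the mutants, against 9.57, 10.10 and 9.99 in the controls. Mutant replicates 1 and 2 lay below all controls, and mutant replicate 3 lay among them. The means were 9.20 ± 0.82 in mutants and 9.89 ± 0.28 in controls (SD, n = 3), a difference of -0.69 (SE 0.37, 95% interval -1.55 to 0.17), or 1.61-fold lower (adjusted p = 0.943 in limma). Leaving out mutant replicate 1 gave -0.27 (SE 0.27). All 13 probe sets had a lower mean in mutants, yet in 0 of them were the groups apart. Probe set 4942233, of smallest p, read 9.20, 10.73 and 11.35 in the mutants, against 11.16, 11.55 and 11.86 in the controls.

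Reln encodes reelin, a large secreted glycoprotein best known from neuronal migration in the brain. It had the most probe sets of the 9 genes, 69, and with all 6 arrays the largest difference, though Lrat's was larger without mutant replicate 1, without mutant replicate 3 and with array weights. The gene mean was 7.07, 8.31 and 8.72 in the mutants, against 8.57, 9.26 and 9.06 in the controls. Mutant replicate 3 lay above control replicate 1, so the groups overlapped. The means were 8.03 ± 0.86 in mutants and 8.96 ± 0.36 in controls (SD, n = 3), a difference of -0.93 (SE 0.40, 95% interval -1.84 to -0.01), or 1.90-fold lower (adjusted p = 0.943 in limma). It came to -0.45 (SE 0.24) with mutant replicate 1 left out.

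The lower signal of Reln was spread over its probe sets. Of the 69, 68 had a lower mean in mutants. Their differences ran from -1.71 to 0.08 around a median of -0.97. In 24 all mutants lay below all controls, against 4.42% of all probe sets kept. The mutants were unequal: 68 of the 69 lay below all 3 controls in mutant replicate 1, 56 in mutant replicate 2 and 27 in mutant replicate 3. Probe set 5381751, of smallest p, read 7.10, 8.62 and 8.63 in the mutants, against 9.67, 10.11 and 9.70 in the controls (difference -1.71, SE 0.43, adjusted p = 0.994 in limma). There mutant replicates 2 and 3 were alike, unlike in the gene mean. Probe sets of 1 gene share the same samples and are not separate comparisons.

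Hgf encodes hepatocyte growth factor, which stellate cells secrete and hepatocytes sense through the receptor Met. It read 7.76, 8.08 and 8.51 in the mutants, against 8.10, 8.28 and 8.47 in the controls, and the mutants reached below and above all controls. The difference was -0.17 (SE 0.21, 95% interval -0.66 to 0.32, adjusted p = 0.947 in limma), and 0.01 with mutant replicate 1 left out. Of its 20 probe sets 18 had a lower mean in mutants. In mutant replicate 1, 15 lay below all controls, against 36.6% of all probe sets. In mutant replicate 3, 10 lay above all controls, against 31.2% of all. Probe set 5261850, of smallest p, read 7.04, 8.74 and 8.78 in the mutants, against 8.65, 8.63 and 8.96 in the controls.

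Pdgfrb encodes the beta receptor for platelet-derived growth factor, a mitogen of stellate cells. It read 6.31, 6.43 and 7.07 in the mutants, against 6.76, 6.66 and 6.49 in the controls. The difference was -0.03 (SE 0.22, 95% interval -0.53 to 0.47, adjusted p = 0.985 in limma), and 0.12 with mutant replicate 1 left out. Its sign turned positive with quantile normalization or arrays centred on their medians. The mutants lay on both sides of the controls: 13 of 25 probe sets were below all controls in mutant replicate 1 (36.6% of all probe sets), and 17 were above all controls in mutant replicate 3 (31.2% of all). Probe set 4722440, of smallest p, read 5.65, 6.17 and 7.20 in the mutants, against 6.83, 7.42 and 7.04 in the controls.

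Rgs5, a regulator of G-protein signalling known from pericytes, read 7.67, 8.17 and 8.54 in the mutants, against 8.25, 8.09 and 8.44 in the controls. The difference was -0.13 (SE 0.23, 95% interval -0.67 to 0.40, adjusted p = 0.955 in limma), and 0.10 with mutant replicate 1 left out. Of its 8 probe sets 6 had a lower and 2 a higher mean in mutants. Probe set 5042967, of smallest p, read 8.23, 8.87 and 9.52 in the mutants, against 8.76, 9.07 and 9.74 in the controls. Probe sets 5167291 and 4833996 were singled out after their values were seen. The first read 2.44, 6.14 and 5.38 in the mutants, against 5.91, 4.74 and 5.08 in the controls, with mutant replicate 1 under the signal minimum. The other read 10.77, 9.92 and 10.40 in the mutants, against 9.99, 10.17 and 10.27 in the controls, with the same array highest.

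Des encodes desmin, an intermediate filament of muscle cells and of stellate cells in rodents. It was the 1 gene of the 9 with a higher mean in mutants, and read 6.21, 6.10 and 5.96 in the mutants, against 5.96, 6.05 and 5.87 in the controls. The difference was 0.13 (SE 0.15, 95% interval -0.21 to 0.47, adjusted p = 0.943 in limma), 0.07 with mutant replicate 1 left out, and -0.16 when the median over probe sets replaced the mean. Its 12 probe sets were split, 7 higher and 5 lower, and ran from -0.52 to 1.24. Probe set 5061750, of smallest p, read 5.49, 4.54 and 4.97 in the mutants, against 3.99, 4.60 and 3.91 in the controls.

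**Figure D2:**
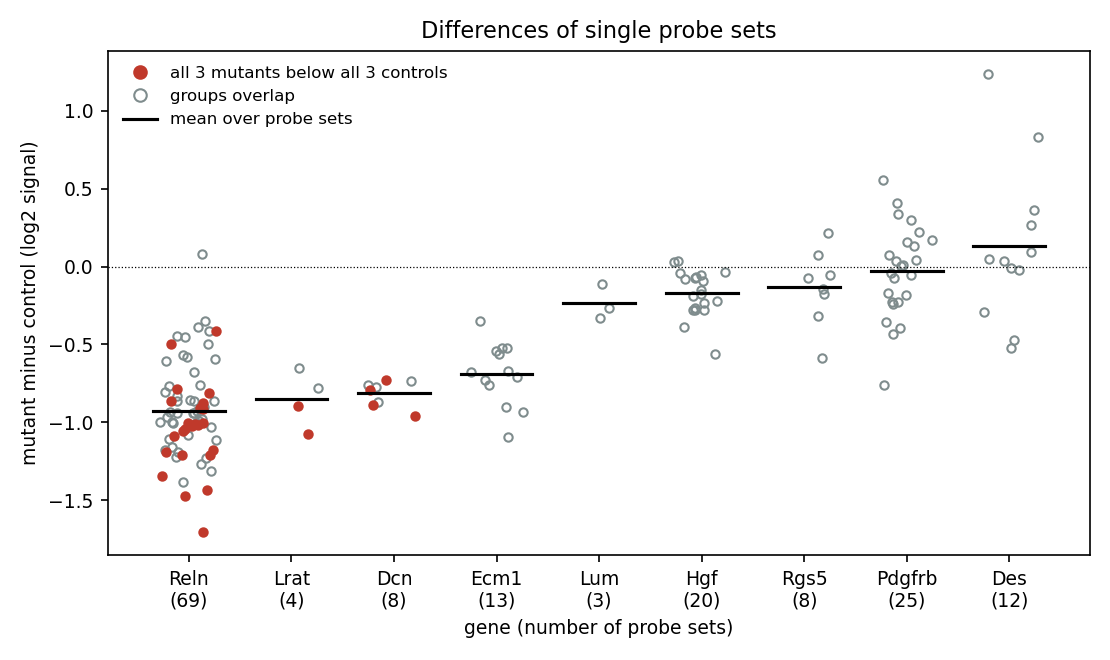
Mutant minus control difference in log2 signal (y axis) of each of the 162 probe sets of the 9 genes (x axis, number of probe sets in brackets), with the mean over each gene's probe sets as a line and filled points where all 3 mutants lay below all 3 controls. The 30 filled points belong to Reln (24), Dcn (4) and Lrat (2), and the probe sets of Pdgfrb and Des lie on both sides of 0.

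Over the 9 genes together 137 of 162 probe sets had a lower mean in mutants and 25 a higher one, against 53.4% lower among all 174710 probe sets kept. The mutants lay wholly below the controls in 30 and wholly above in 0, against 4.42% and 3.98% of all probe sets. After adjustment 0 of the 162 passed in limma, as did 0 of all probe sets (4.01% had an unadjusted p under 0.05). Of the 162, 25 had an unadjusted p under 0.05 with the mutants lower, against 2.13% of all probe sets, and 1 with the mutants higher. Reln alone gave 69 of the 162 probe sets, 68 of the 137 lower, 24 of the 30 wholly below and 21 of those 25. Probe sets of 1 gene are not separate comparisons, so the pooled counts weigh Reln most. When mutant replicate 1 was left out, 120 of the 162 had a lower mean (48.6% of all probe sets), and 30 lay wholly below the controls (7.44% of all).

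Exon usage, how far single probe sets depart from their own gene's difference, was tested in limma by the F-test of diffSplice. Of the 9 genes 0 passed, where 0.210% of 14310 genes did, and the adjusted p was 1 for each. The F-test did not detect unequal differences among the probe sets of these genes.

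The mutants differed among themselves in a repeated order. Mutant replicate 1 was the lowest of the 6 arrays in 8 of the 9 genes, Des being the exception, where 32.8% of all genes had that array lowest. Averaged over the 9 genes, the arrays of mutant replicates 1, 2 and 3 stood at -0.94, -0.35 and 0.05 relative to the control mean. The controls stood at -0.15, 0.12 and 0.03. Over all genes the median of the same deviation ran from -0.06 to 0.07 over the 6 arrays. In Dcn, Reln, Lrat, Ecm1 and Hgf control replicate 1 was the lowest control. Of the 162 probe sets 132 lay below all controls in mutant replicate 1, 103 in mutant replicate 2 and 39 in mutant replicate 3, against 36.6%, 30.6% and 18.1% of all probe sets on those arrays. Reln gave 68, 56 and 27 of those below. Above all controls lay 10, 8 and 43 of the 162, against 28.1%, 21.0% and 31.2% of all. In mutant replicate 3 more of all probe sets, too, lay above all controls (31.2%) than below (18.1%).

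**Figure D3:**
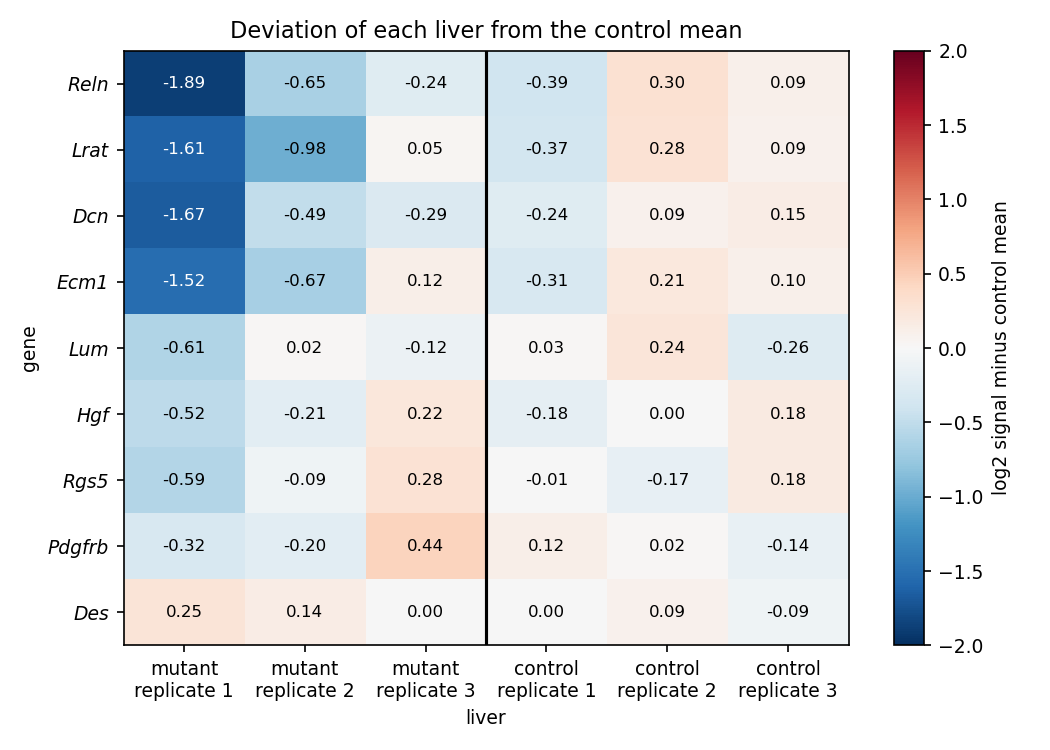
Log2 signal of each liver sample (columns, mutants left of the line) minus the control mean, in colour and figures. Rows are the 9 genes, ordered by the mutant minus control difference. Reln, Lrat, Dcn and Ecm1 lie at -1.89 to -1.52 in mutant replicate 1 and at -0.98 to -0.49 in mutant replicate 2, while mutant replicate 3 lies between -0.29 and 0.12.

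Other measures also differed between arrays of the same group. Acute phase genes, which hepatocytes express in inflammation, had a higher mean in mutants in all 14 measured members, and the list stood at 1.99, 0.82 and 0.47 relative to the control mean in mutant replicates 1, 2 and 3. Its levels were 11.73 to 13.25 in mutants and 11.14 to 11.35 in controls. With mutant replicate 1 left out, 11 of the 14 were higher. Dbp, a clock output factor whose level swings over the day, read 6.90, 6.91 and 8.74 in the mutants, against 7.29, 8.93 and 8.71 in the controls. Its low arrays were thus mutant replicates 1 and 2 and control replicate 1. The part of either in the values of the stellate cell markers was not tested.

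Of 23 other genes used for stellate cells, 21 were measured, 16 lower and 5 higher in mutants (median -0.24), with 0 past the adjusted threshold. Prelp, which encodes a leucine-rich matrix proteoglycan, had the smallest p and read 7.71, 8.15 and 8.63 in the mutants, against 8.75, 8.88 and 8.68 in the controls, without overlap (difference -0.61, SE 0.23, adjusted p = 0.943 in limma, and -0.38 with mutant replicate 1 left out). The growth factor genes Bmp5 and Gdf2 differed by -0.72 and -0.54, and Gucy1a1, a subunit of the nitric oxide receptor, by -0.61. These came to -0.32, -0.23 and -0.28 with mutant replicate 1 left out. The list stood at -0.55, -0.22 and 0.04 relative to the control mean in mutant replicates 1, 2 and 3, the order seen in the 9 genes. Leaving out mutant replicate 1, 12 were lower and 9 higher, with a median of -0.06.

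Retinoid storage and signalling, the pathway of Lrat, had 15 of 24 measured genes lower (median -0.03) and 0 past the threshold, and 13 of 24 (median -0.01) with mutant replicate 1 left out. The retinoic acid receptor gene Rara read 7.75, 7.61 and 7.88 in the mutants, against 8.03, 8.04 and 8.17 in the controls, without overlap (difference -0.34, SE 0.15, and -0.34 with that array left out). Plin2, which coats lipid droplets, read 11.19, 11.08 and 11.78 in the mutants, against 10.98, 10.96 and 10.77 in the controls, also without overlap (difference 0.45, SE 0.21, and 0.53 with that array left out). Among proteoglycans related to Dcn and Lum 6 of 7 were lower (median -0.24), and 5 of 7 (median -0.24) with that array left out. The exception was the dim gene Epyc, at 0.41 (SE 0.16), and 0.34 with it left out. Of the genes of the lectin pathway of complement, to which Colec11 belongs, 6 of 7 were lower (median -0.09). With mutant replicate 1 left out, 4 of 7 were lower (median -0.07). The 1 higher gene with all arrays, Mbl1, had the smallest p. It read 10.64, 10.12 and 10.77 in the mutants, against 10.10, 9.93 and 9.90 in the controls, without overlap. Its difference was 0.53 (SE 0.20), and 0.46 with that array left out. Mbl2 was at -0.69 (SE 0.35), and at -1.15 with that array left out. Colec10, which encodes a related collectin, read 6.35, 8.17 and 8.65 in the mutants, against 7.95, 8.93 and 8.75 in the controls (difference -0.82, SE 0.55, and -0.13 with mutant replicate 1 left out).

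Partners of the signalling genes gave mixed values. The ligands for the platelet-derived growth factor receptors, with Pdgfra, had 3 of 5 genes lower, with Pdgfc at 0.33 (SE 0.21) and Pdgfra at -0.27 (SE 0.18). The receptor, activators and inhibitors of hepatocyte growth factor had 4 of 8 lower, with the Met adaptor gene Gab1 at -0.65 (SE 0.31). The reelin receptor genes Vldlr and Lrp8 and the adaptor gene Dab1 differed by 0.14, 0.16 and 0.26. Of the other regulators related to Rgs5, 5 of 8 were lower, and Rgs13, at 0.98 (SE 0.16), had the smallest p (adjusted p = 0.547 in limma). Rgs13 was dim, at 4.07, 3.68 and 3.66 in the mutants, against 2.85, 2.75 and 2.86 in the controls. Its control values were under the signal minimum of 3, so the difference lies near the floor of the signal. None of the genes in these lists passed. With mutant replicate 1 left out, Gab1 was at -0.39, Pdgfc at 0.12, Pdgfra at -0.29 and Rgs13 at 0.85, and Vldlr, Lrp8 and Dab1 were at 0.39, 0.15 and 0.28. The counts lower were then 3 of 5, 4 of 8, 0 of 3 and 4 of 8 for the platelet-derived growth factor, hepatocyte growth factor, reelin and regulator lists.

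Genes of stellate cell activation and matrix turnover had 16 of 23 lower (median -0.15) and 0 past the threshold. Leaving out mutant replicate 1, 12 of 23 were lower and the median was -0.03. Postn, which encodes a matrix protein of myofibroblasts, differed by -1.06 (SE 0.39), and by -0.83 with that array left out. Spp1, which encodes osteopontin, differed by 1.07 (SE 0.55), and by 0.38 with mutant replicate 1 left out. The list stood at 0.00, -0.24 and 0.08 relative to the control mean in mutant replicates 1, 2 and 3. Collagen chains had 8 of 13 lower (median -0.06), and 9 of 13 (median -0.12) with mutant replicate 1 left out. Col14a1, a fibril-associated collagen, had the smallest p among them and read 7.10, 8.16 and 8.88 in the mutants, against 8.54, 9.39 and 9.15 in the controls (difference -0.98, SE 0.42, and -0.50 with mutant replicate 1 left out). The collagen list as a whole stood at -0.10 in mutant replicate 1.

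Markers of neighbouring cells were read on the same arrays. Pericyte and smooth muscle markers had 9 of 15 lower, at 5.83 to 6.08 in mutants and 5.82 to 6.08 in controls. Of this list, Kcnj8 and Higd1b differed by 0.39 (SE 0.17) and 0.42 (SE 0.18). Abcc9 and Cspg4 differed by -0.64 (SE 0.29) and -0.19 (SE 0.15). With mutant replicate 1 left out the values were 0.52, 0.26, -0.36 and -0.24 for Kcnj8, Higd1b, Abcc9 and Cspg4. Portal fibroblast markers had 5 of 10 lower, at 5.72 to 5.99 in mutants and 5.75 to 5.86 in controls. Mesothelial markers had 2 of 5 lower, at 5.36 to 5.72 in mutants and 5.47 to 5.57 in controls. Leaving out mutant replicate 1, 7 of 15 pericyte, 3 of 10 portal fibroblast and 0 of 5 mesothelial markers were lower. Sinusoidal endothelial markers had 8 of 12 lower (median -0.19), and 11 of 12 (median -0.14) with mutant replicate 1 left out. Here mutant replicate 2 was the lowest array, at -0.57 relative to the control mean. Kupffer cell markers had 6 of 12 lower, with mutant replicate 1 at 0.54, and 11 of 12 with that array left out. Neutrophil markers had 3 of 9 lower, with mutant replicate 1 at 0.78, and 6 of 9 with it left out. Hepatocyte markers had 3 of 6 lower, bile duct markers 2 of 7, lymphocyte markers 7 of 11, adipocyte markers 0 of 8 and red cell markers 1 of 3. With mutant replicate 1 left out these counts were 3 of 6, 2 of 7, 8 of 11, 1 of 8 and 0 of 3 in the same order. Immediate early genes, sensitive to tissue handling, had 3 of 9 lower, with mutant replicate 1 at 0.41, and 5 of 9 with it left out. In these lists 0 genes passed in limma.

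**Figure D4:**
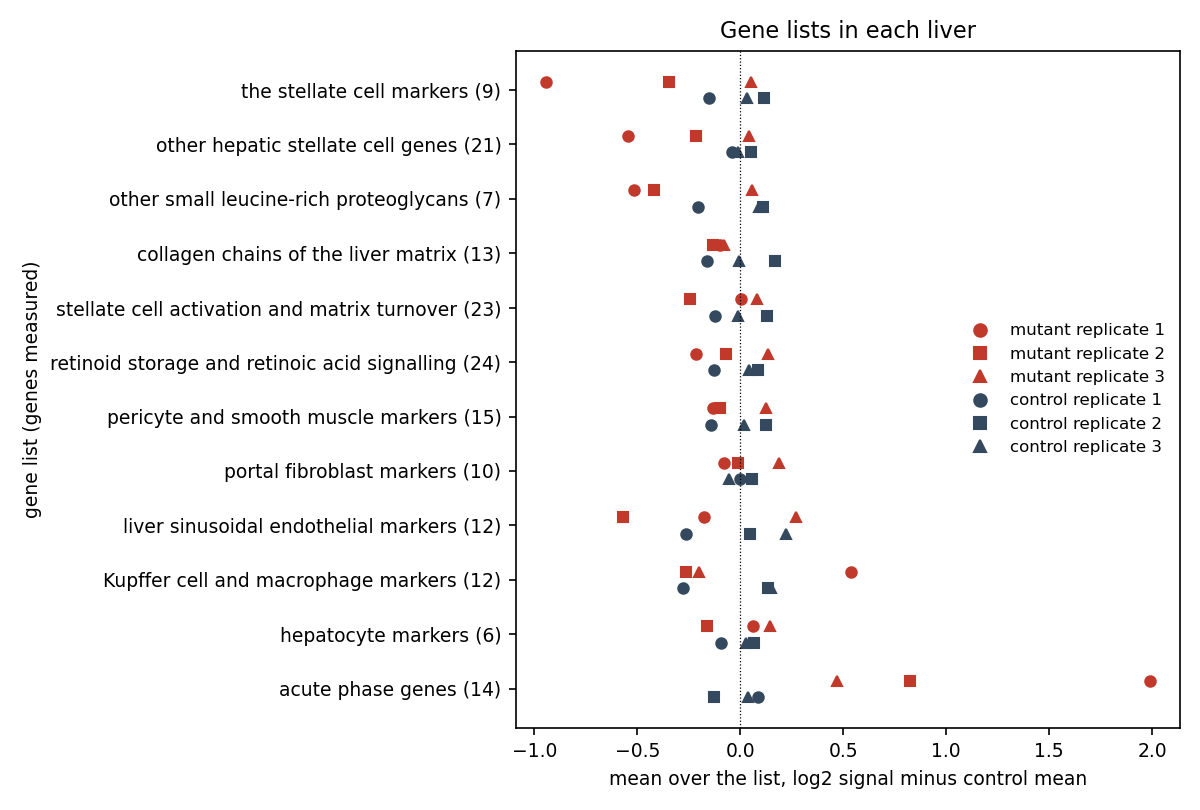
Mean over each gene list of log2 signal minus the control mean (x axis) in every liver sample. Mutants are drawn above controls in each row, with symbols for the replicate number and the number of genes measured in brackets. The stellate cell markers and the other stellate cell genes have mutant replicate 1 lowest and mutant replicate 3 near 0, the acute phase genes have the mutants in the opposite order, and the hepatocyte markers stay within 0.16 of 0.

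Outside the list, the genes whose levels over the 6 arrays lay closest to the mean profile of the 9 genes were found by root mean square distance, among 2298 genes with at least the same range (1.06 log2 units). They were Senp8, Suox, Exoc6, Lrrk2 and Hapln3. Their distances were 0.05 to 0.06 log2 units, against a median of 0.46 over those 2298 genes. Suox, which encodes sulfite oxidase, read 10.05, 10.76 and 11.15 in the mutants, against 10.88, 11.07 and 11.08 in the controls. The likeness is a description over 6 arrays.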

How the data were processed

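Total RNA of 6 liver samples was amplified to cDNA, biotin-labelled and read on exon arrays, per the labels' protocols. The deposited values are log2 signals of 204531 probe sets. The submitters' processing notes list Affymetrix Expression Console 1.1, RMA, Partek 6.4 and mm9, with no roles. Where RMA was applied, it makes arrays alike overall and shrinks differences at low signal. The minimum of 3 follows the series' design text.

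Platform symbols were updated through RefSeq: of 16139 symbols 13995 were current, 2104 were updated by synonym and 40 had no match. RefSeq's assembly is not mm9 and served for names, gene order and promoter sequence. Genes needed 2 kept probe sets, and 3 for exon usage. Mutants were compared with controls in limma 3.58.1 (lmFit, eBayes and diffSplice, R 4.3.3), two-sided, with Benjamini-Hochberg adjustment over all features. Each step was tested on simulated data with equal spread in all arrays, unlike these data. There shifts of -1 were recovered in 65% of genes and 32.3% of probe sets, and shifts of -2 in 99% and 98.1%. These shares need not hold in the real data, where Dhx32, at -1.92, did not pass (adjusted p = 0.183 in limma). A gene that did not pass may therefore still differ. Labels do not say that samples of a group are separate mice, so p-values measure the spread between these samples, which may be technical.

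Members and lists were chosen with earlier results of these data known. Named were all members, the probe set of smallest p in each, at most 4 genes of smallest p per list and the 5 nearest profiles. Dhx32 was named as the check of the labels, and Dbp was named outside this rule. Alternatives covered the signal minimum, scaling, gene summary, array weights, a replicate block and leaving out each array.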

Additional observations from a re-analysis of the deposited data

How the results depend on the processing

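Differences of the 9 genes were recomputed under 13 alternatives. In each, 0 of the 9 passed the adjusted threshold, and Dcn, Reln, Lrat, Ecm1 and Lum kept a lower mean in mutants. With 1 array left out, the difference ran from -1.08 to -0.39 for Dcn, -1.27 to -0.45 for Reln, from -1.30 to -0.47 for Lrat and from -1.09 to -0.27 for Ecm1, nearest 0 without mutant replicate 1 and farthest from 0 without mutant replicate 3. The sign changed in 4 genes. Des was at -0.16 with the median over probe sets. Pdgfrb was at 0.0064 with quantile normalization and 0.017 with centred arrays, and with 1 array left out ran from -0.26 to 0.12 (0.12 without mutant replicate 1, 0.06 without mutant replicate 2, 0.03 without control replicate 1). With 1 array left out Hgf ran from -0.37 to 0.0071 and Rgs5 from -0.34 to 0.10, each above 0 without mutant replicate 1. The median over the 9 genes ran from -0.37 to -0.05. The count of lower genes, 8, was 5 without mutant replicate 1, an alternative chosen after seeing the data.

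Over all genes 1 passed in limma. The count was 0 with no signal minimum, 2 with quantile normalization, with centred arrays and with array weights, and 0 to 3 with 1 array left out. Of all probe sets 0 passed (7004 at an unadjusted p under 0.05), 2 with a minimum of 5, and 0 to 5 with 1 array left out. For exon usage the count was 30, against 130 with the Simes test and 12 to 54 with 1 array left out. Over all probe sets with a single gene symbol, same-numbered arrays did not deviate together (correlations of 0.01, -0.11 and 0.12). The main comparison therefore used no pairing. In Dcn, Reln, Lrat, Ecm1 and Hgf, however, replicate 1 was the lowest array of both groups. With the replicate block 0 genes passed and 18 passed for exon usage, and the block changed no call of the 9 genes. The unadjusted limma p with the block was 0.00548 for Reln, 0.00874 for Dcn, 0.0144 for Lrat and 0.0273 for Ecm1. Without it these were 0.0472, 0.0424, 0.0589 and 0.101, and the other members stayed at 0.276 or more with it. Over all genes 893 had an unadjusted p under 0.05 with the block and 633 without it. Whether same-numbered samples share a factor was not tested. Quantile normalization and centring moved the share of genes lower in mutants to 46.3% and 44.2%, against 52.5%. The cause of these changes was not tested.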
